A study of Mus musculus with 20 samples.

Results

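The genes described here are the 4 adenosine receptors (Adora1, Adora2a, Adora2b, Adora3), the enzymes that make and remove adenosine (Nt5e, Adk, Ada) and the monoamine oxidases (Maoa, Maob), 9 of the 56805 genes in the count tables. They were found by gene name in the table of each library, and all 9 were among the 21306 genes with enough reads to be tested. They were measured by RNA sequencing of white adipose tissue from 20 mice, 1 library per mouse, in 4 groups of 5. The groups were high-fat diet with Tibetan tea (high-fat tea), high-fat diet with water (high-fat water), chow with Tibetan tea (chow tea) and chow with water (chow water). Feeding and drinking were free for 10 weeks, and the tea, a fermented dark tea, was given as a water extract. The strain, sex and age of the mice and the fat depot are not stated in the labels, and no group carried a named mutation or transgene.

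Adenosine is a purine nucleoside that cells release or form outside the membrane from ATP and its breakdown products. In fat cells the A1 receptor, encoded by Adora1, couples to inhibitory G proteins, lowers cyclic AMP and restrains the release of fatty acids, whereas the receptors of Adora2a and Adora2b couple to stimulatory G proteins and raise cyclic AMP. CD73, the product of Nt5e, forms adenosine from AMP on the cell surface, and adenosine kinase (Adk) and adenosine deaminase (Ada) remove it. Monoamine oxidases are enzymes of the outer mitochondrial membrane that oxidise amines, among them noradrenaline, the transmitter of the sympathetic nerves that call for lipolysis in fat. Caffeine, a constituent of tea, is an antagonist of adenosine receptors, and adenosine supply, its receptors and catecholamine breakdown all bear on cyclic AMP in the adipocyte.

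Nt5e and Maoa were the members whose levels differed most between the high-fat groups, and the sequences around their starts are shown for that reason. Promoter windows came from RefSeq on GRCm38.p6 and held 250 bases before and 50 bases after the annotated start, with 7 of the 9 members matched in 9 windows. Capitals mark the GC box (GGGCGG, or CCGCCC on the other strand) and the core of the cyclic AMP response half-site (TGACG, or CGTCA on the other strand), and overlapping matches run together. The window of Nt5e is chr9:88327359-88327658 on the plus strand and that of Maoa is chrX:16619448-16619747 on the plus strand.
Nt5e: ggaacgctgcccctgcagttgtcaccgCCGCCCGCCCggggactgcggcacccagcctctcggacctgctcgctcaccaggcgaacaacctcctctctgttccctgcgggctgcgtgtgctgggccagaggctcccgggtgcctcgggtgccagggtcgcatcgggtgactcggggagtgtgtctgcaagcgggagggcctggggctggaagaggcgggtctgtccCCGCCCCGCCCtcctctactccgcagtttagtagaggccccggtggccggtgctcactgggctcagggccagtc
Maoa: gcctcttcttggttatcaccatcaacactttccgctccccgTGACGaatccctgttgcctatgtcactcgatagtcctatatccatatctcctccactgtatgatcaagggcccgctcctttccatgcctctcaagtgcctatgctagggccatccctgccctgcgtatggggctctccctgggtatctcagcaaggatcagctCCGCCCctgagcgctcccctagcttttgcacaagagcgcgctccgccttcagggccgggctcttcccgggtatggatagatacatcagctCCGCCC
The Nt5e window was 71.0% G and C and held 4 GC boxes and 0 cyclic AMP half-sites. The Maoa window was 57.7% G and C and held 2 GC boxes and 1 cyclic AMP half-site. Among 32851 promoter windows of the same length, 35.7% held a GC box and 20.8% a cyclic AMP half-site. A match describes the letters and not a bound site. Of the other members, Adora2b held 6 GC boxes, Ada 2, Adora3 0, Adk 4 in each of its windows, and Adora1 3 in one window and 0 in the other.

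The libraries held 53047057 to 93314761 reads in genes. Levels are given as CPM, counts scaled to a common library size after TMM normalisation, and a change as log2 with its standard error (SE). A gene was called changed at an adjusted p below 0.05 in the quasi-likelihood F test of edgeR, adjusted by Benjamini-Hochberg over all 21306 genes. All 8 adipocyte markers (Adipoq, Plin1 and others) were detected in every library, with a summed level of 8500 to 36000 CPM in high-fat tea, 17600 to 31200 in high-fat water, 29500 to 38100 in chow tea and 11400 to 39500 in chow water. In 3 of the groups the lowest sum belonged to a library with transcripts of other organs. High-fat tea replicate 4 held 21260 CPM of a kidney list, high-fat water replicate 4 held 28840 CPM of a male reproductive tract list and 13290 CPM of an adrenal cortex list, and chow water replicate 1 held 490700 CPM of a pancreas acinus list and 5550 CPM of an intestine list. Another 6 libraries had over 1000 CPM of a skeletal muscle list, up to 30670 CPM in high-fat tea replicate 1 and 27000 CPM in high-fat water replicate 5. Below, "the 3 libraries" are the first 3 and "the 9 libraries" all of these, and results that rest on the 3 are given with and without them. High-fat tea replicate 2, with 648 CPM of the adrenal cortex list, is in neither set. In bulk tissue, fewer cells of a type and less RNA per cell cannot be told apart.

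**Figure D1:**
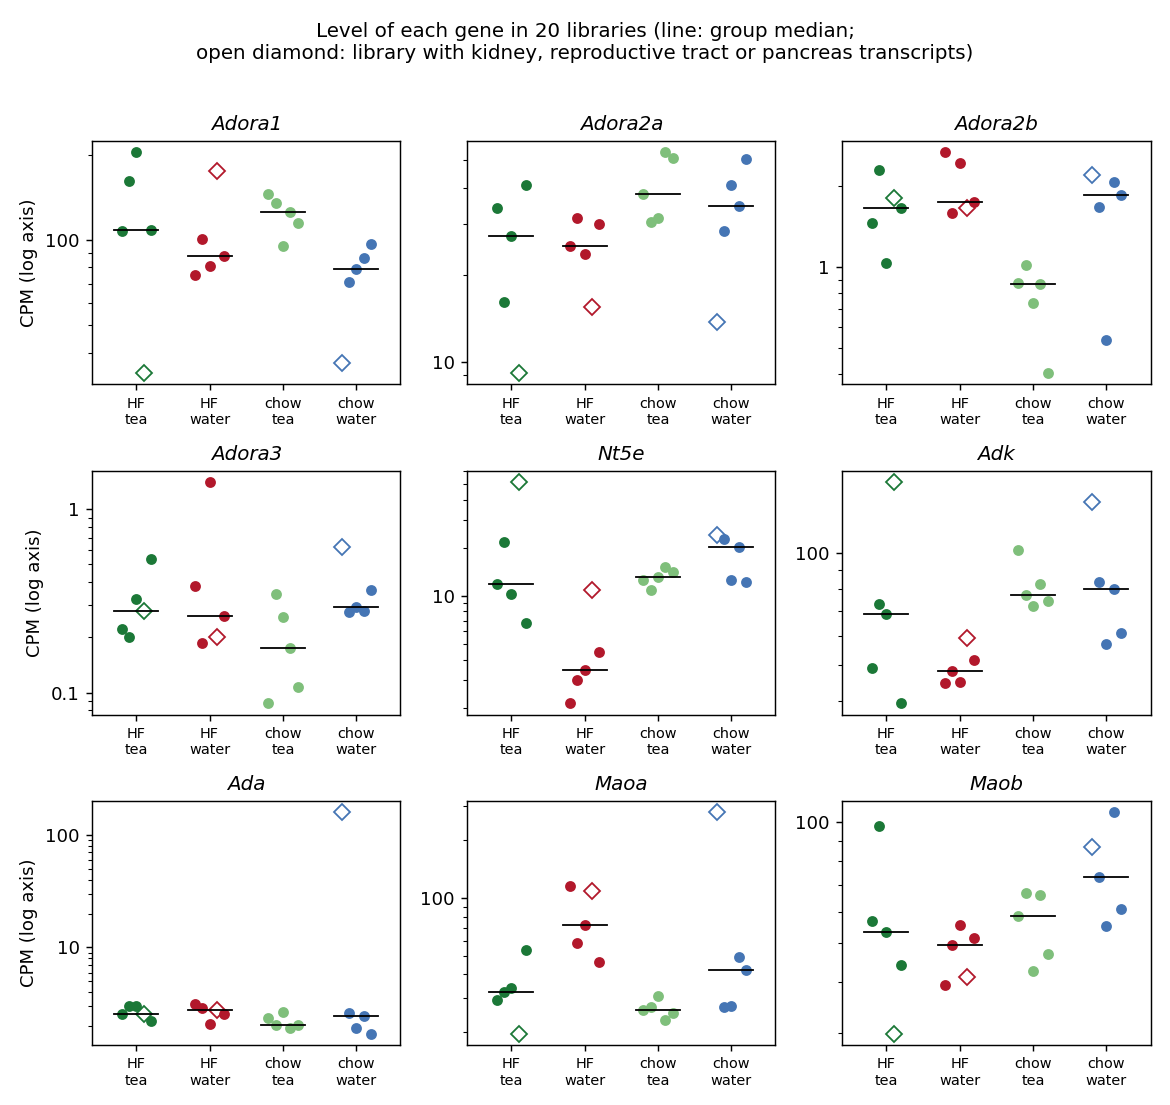
Level of each of the 9 genes in every library, in CPM on a log axis, with 1 point per mouse, a line at the group median and open diamonds for the 3 libraries with kidney, reproductive tract or pancreas transcripts, groups from left to right high-fat (HF) tea, HF water, chow tea and chow water. Nt5e lay between 2.13 and 10.9 CPM in high-fat water, below every chow water library, and a lone chow water library stood at 158 CPM for Ada and 280 CPM for Maoa.

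Levels between genes were compared per kilobase of exon (medians of CPM per kilobase over the 20 libraries). Maob stood at 19.9, Adora1 at 17.1, Adora2a at 10.1, Adk at 8.25 and Maoa at 7.97, followed by Nt5e at 1.44, Ada at 1.29, Adora2b at 0.902 and Adora3 at 0.074. The place of Adk depends on the length used, since its annotated exons span 8526 bases and its longest coding transcript 1818 bases. On transcript length Adk had 38.7 CPM per kilobase and led the order, ahead of Maob at 23.0 and Adora1 at 19.9. Adora1 and Adora2a thus carried nearly all of the receptor signal on this scale. Adora1 made up a median of 60.8% of the summed CPM per kilobase of the 4 receptors in high-fat tea (56.6% to 81.0%), 59.9% in high-fat water (57.2% to 83.5%), 60.7% in chow tea (54.2% to 68.8%) and 52.2% in chow water (48.8% to 54.7%). No high-fat tea or high-fat water library had a share as low as the highest of chow water. This share was not tested, and diet and drink both differ between high-fat tea and chow water. Among levels of single genes, 12.9% did not overlap between high-fat water and chow water. Over all 20 libraries edgeR called neither Adora1 nor Adora2a in any comparison. Adora2b and Adora3 together held between 0.677% and 11.2% of that sum in any library.

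**Figure D2:**
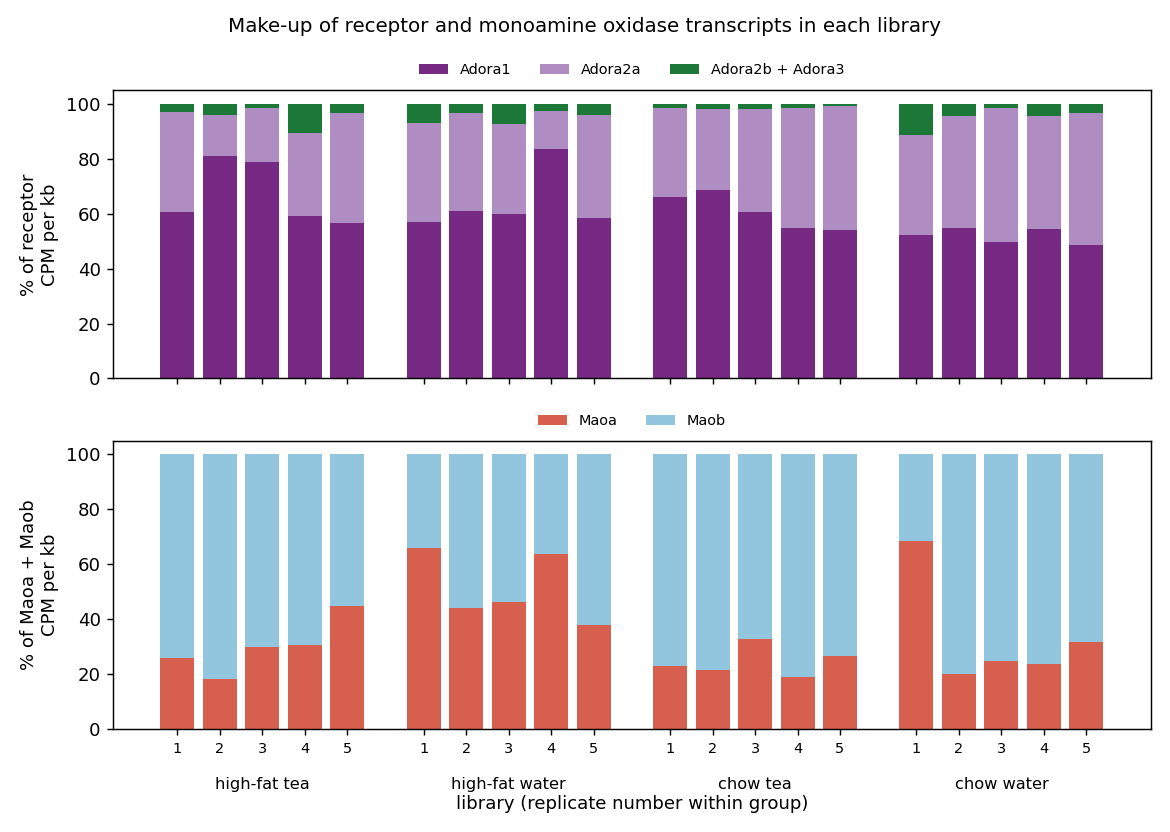
Stacked bars of each gene's share within a library, in percent of the summed CPM per kilobase of exon, 1 bar per mouse, with the 4 receptors above and the 2 monoamine oxidases below, in the order high-fat tea, high-fat water, chow tea and chow water. The share of Adora1 among the 4 receptors was 48.8% to 54.7% in chow water, and the share of Maoa in Maoa plus Maob was 37.7% to 66.1% in high-fat water against 19.9% to 68.3% in chow water. The 68.3% is that of chow water replicate 1, and the other chow water libraries reached at most 31.8%.

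High-fat against chow feeding in mice that drank water addresses the effect of the diet alone. In that comparison 2 of the 9 genes were called, both lower (Nt5e and Ada), beside 15.2% of all genes tested in either direction and 7.11% called lower. The call of Ada rested on chow water replicate 1, and without that library the 2 genes called were Nt5e, lower, and Maoa, higher. Nt5e was the only member whose libraries did not overlap between these groups, beside 12.9% of all genes without overlap. Over the 9 genes the median log2 change was -0.42, against -0.002 over all genes. High-fat tea against high-fat water addresses tea under a high-fat diet, and there 1 of the 9 genes was called, Nt5e, and it was higher. This stands beside 4.36% of all genes called and 2.06% called higher, and the median was 0.02 for the 9 genes and 0.02 for all. None of the 9 was free of overlap there, beside 5.55% of all genes. Both comparisons share the high-fat water libraries.

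Between chow tea and chow water none of the 9 genes was called by edgeR or limma voom, and none of the 8 with an adjusted p in DESeq2 (all but Ada), beside 0.0235% of all genes called by edgeR. At an unadjusted p under 0.05, 3 of the 9 passed (Ada, Adora2b and Maoa), beside 12.4% of all genes, and without chow water replicate 1 the unadjusted p was 0.962 for Ada and 0.1 for Maoa. None of the 9 was free of overlap between these groups, beside 2.56% of all genes. Between high-fat tea and chow tea edgeR and limma voom called none and DESeq2 called Adora2b, and 1 gene had an unadjusted p under 0.05 in edgeR, beside 16.3% of all genes. The background called by edgeR was 0.178% there. For the interaction of diet and tea, the difference between the tea effect in high-fat and in chow feeding, edgeR and limma voom called none and DESeq2 called Nt5e, with 0.0657% of all genes called by edgeR. At an unadjusted p under 0.05, 2 of the 9 passed (Ada and Nt5e), beside 15.0% of all genes, and the interaction of Ada, 3.90, was 0.02 without chow water replicate 1.

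**Figure D3:**
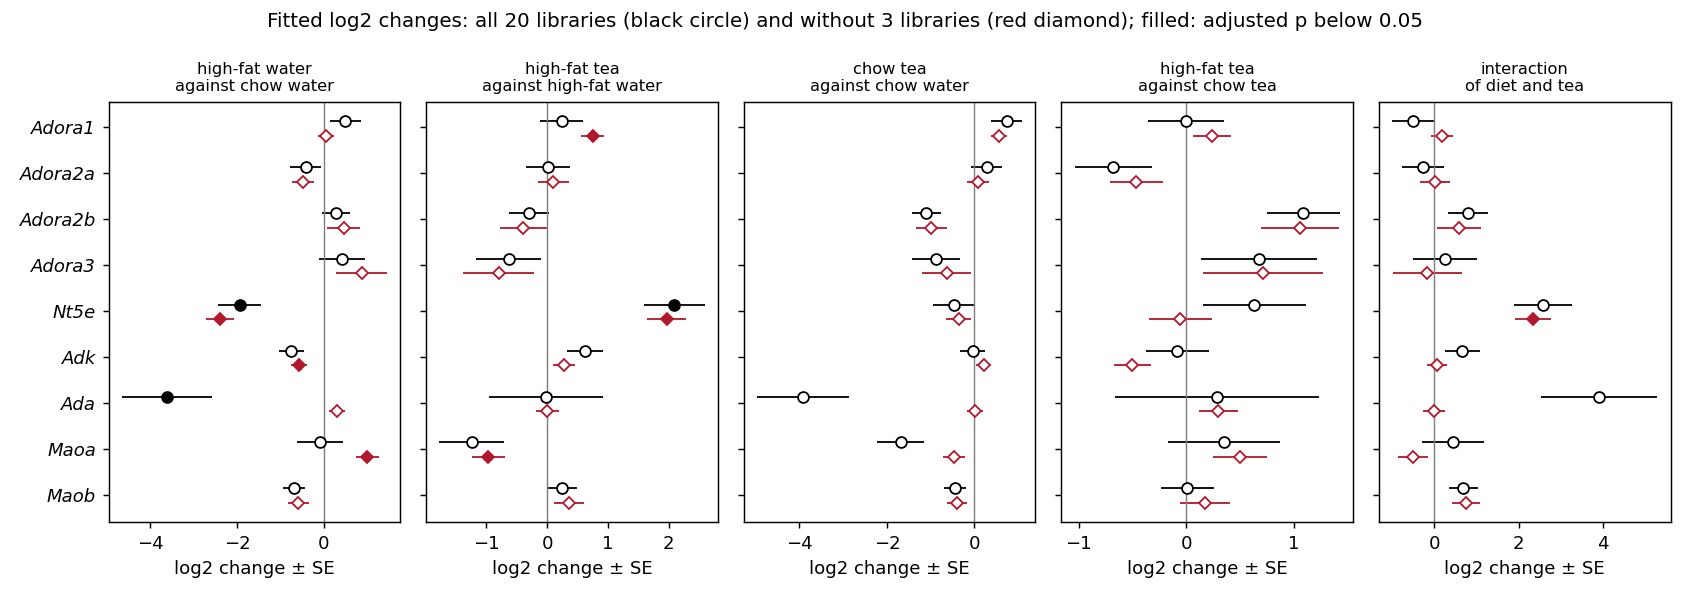
Log2 change ± SE of each of the 9 genes in the 5 comparisons, over all 20 libraries (black circles) and without the 3 libraries with kidney, reproductive tract or pancreas transcripts (red diamonds), filled where the adjusted p was below 0.05; each panel has its own log2 axis. Over all libraries Nt5e was the only gene called in both high-fat water against chow water (-1.94) and high-fat tea against high-fat water (2.10), and Ada moved to 0.30 in high-fat water against chow water without the 3.

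Adora1 encodes the A1 receptor, the main adenosine receptor of fat cells, and lies on chromosome 1 from base 134126961 to 134163169 on the minus strand of GRCm39. Its level was 107, 162, 205, 33.9 and 108 CPM in high-fat tea, and 75.5, 101, 81.3, 175 and 88.1 CPM in high-fat water. It was 146, 135, 95.5, 126 and 115 CPM in chow tea, and 36.9, 71.3, 78.9, 86.2 and 96.5 CPM in chow water. The lowest value of high-fat tea and of chow water, and the highest of high-fat water, were in the 3 libraries with transcripts of other organs. In chow tea 4 of 5 libraries lay above the highest chow water library. The log2 change of chow tea against chow water was 0.74 (SE 0.35, unadjusted p = 0.052, adjusted p = 0.410). Adora1 changed by 0.49 (SE 0.35, adjusted p = 0.361) in high-fat water against chow water, 0.05 without the 3 libraries, and by 0.24 (SE 0.35, adjusted p = 0.732) in high-fat tea against high-fat water. Without the 3 libraries Adora1 averaged 145 ± 46.9 CPM in high-fat tea (SD, n = 4) and 86.4 ± 10.9 CPM in high-fat water (SD, n = 4), and the difference became 0.75 with an adjusted p of 0.0286 in edgeR. Without the 9 libraries it was 0.62 with an adjusted p of 0.244. Both alternatives were chosen after seeing the data. High-fat tea replicate 2, at 162 CPM of Adora1 and with 648 CPM of the adrenal cortex list, stayed in both. Per 1000 CPM of the adipocyte list, Adora1 had 3.0 to 7.31 CPM in high-fat tea, 2.57 to 9.96 in high-fat water, 3.04 to 3.82 in chow tea and 2.17 to 3.25 in chow water. Of the exonic bases of Adora1, 20.1% overlap Mybph, a muscle myosin-binding gene on the opposite strand, and the counts were made without strand.

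Adora2a encodes a receptor that raises cyclic AMP, found on vessels and immune cells as well as on fat cells, and lies on chromosome 10 from base 75152711 to 75170618. Its level was 25.4 ± 12.9 CPM in high-fat tea, 25.1 ± 6.27 in high-fat water, 40.7 ± 10.6 in chow tea and 33.5 ± 13.7 in chow water (SD, n = 5 each). The values ran from 9.14 to 40.7 CPM in high-fat tea and from 30.5 to 53.2 CPM in chow tea, with 3 high-fat tea libraries below the lowest of chow tea. The lowest Adora2a level of high-fat tea, high-fat water and chow water was in each case that of the library with other-organ transcripts. The difference between high-fat tea and chow tea was -0.68 (SE 0.36, adjusted p = 0.355). In high-fat tea against high-fat water the change of Adora2a was 0.02 (SE 0.36, adjusted p = 0.984), so that the difference was smaller than its error. Per 1000 CPM of the 8 endothelial markers, Adora2a had 12.7 to 24.5 CPM in high-fat tea, 13.2 to 19.4 in high-fat water, 18.8 to 27.4 in chow tea and 15.2 to 28.7 in chow water.

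Adora2b, a receptor of low affinity for adenosine, lies on chromosome 11 from base 62139810 to 62157279 and was counted with 30 to 229 reads per library. It stood at 1.47, 2.30, 1.03, 1.81 and 1.67 CPM in high-fat tea, and at 2.69, 1.6, 2.45, 1.66 and 1.74 CPM in high-fat water. In chow tea it stood at 0.87, 1.02, 0.73, 0.86 and 0.40 CPM, and in chow water at 2.22, 1.67, 0.54, 2.09 and 1.86 CPM. All 5 high-fat tea libraries lay above all 5 chow tea libraries, and every chow tea library lay below 4 of the 5 chow water libraries. A gap of this kind between high-fat tea and chow tea was present in 2.77% of all genes. The log2 change of Adora2b was 1.09 (SE 0.34, adjusted p = 0.149) in high-fat tea against chow tea and -1.10 (SE 0.34, adjusted p = 0.213) in chow tea against chow water. DESeq2 gave an adjusted p of 0.03 for the first of these. Its interaction of diet and tea was 0.81 (SE 0.47, adjusted p = 0.448).

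Adora3, a receptor which in rodents is known from mast cells, lies on chromosome 3 from base 105778174 to 105816242 and had the lowest level of the 9, with 5 to 92 reads per library. Its level was 0.20 to 0.54 CPM in high-fat tea, 0.19 to 1.41 in high-fat water, 0.09 to 0.34 in chow tea and 0.27 to 0.62 in chow water. No comparison passed the test, and differences of a few reads are not detectable at this depth. The 8 mast cell markers summed to 39.1 to 82.2 CPM in high-fat tea, 41.6 to 84.3 in high-fat water, 42.2 to 111 in chow tea and 45.3 to 104 in chow water, with the groups overlapping. Of the exonic bases of Adora3, 18.0% overlap a predicted gene and 2.9% overlap Tmigd3 on the same strand, which had at most 2 reads in any library.

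Nt5e, the gene of the AMP-cleaving enzyme CD73, was called in both comparisons that hold the high-fat water group. It lies on chromosome 9 from base 88209250 to 88254145 on the plus strand of GRCm39. Its level was 11.8, 21.9, 10.3, 51.5 and 6.82 CPM in high-fat tea, and 2.13, 2.99, 3.44, 10.9 and 4.44 CPM in high-fat water. It was 12.5, 10.9, 13.2, 15.3 and 14.2 CPM in chow tea, and 23.9, 22.7, 12.6, 20.3 and 12.3 CPM in chow water. All 5 high-fat water libraries lay below all 5 chow water libraries, and 4 of them lay below every library of the other 3 groups. The high-fat tea libraries spread more widely than the others, and 2 of them, at 10.3 and 6.82 CPM, lay below the highest high-fat water library.

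Nt5e fell by 1.94 on the log2 scale in high-fat water against chow water (SE 0.49, adjusted p = 0.0149), a level 3.84-fold lower, and it did so in 5 of 5 libraries. It remained called in 10 of 10 fits that left out 1 library (-2.50 to -1.75). In high-fat tea against high-fat water Nt5e rose by 2.10 (SE 0.50, adjusted p = 0.0267), 4.28-fold, with 3 of 5 high-fat tea libraries above the highest high-fat water library. This rise was called in only 5 of 10 fits that left out 1 library. Its size was 1.41 (adjusted p = 0.0593) without high-fat tea replicate 4, the library with kidney transcripts and the highest Nt5e level. The adjusted p was 0.0767, 0.0713 and 0.0602 without high-fat water replicates 1, 2 and 3 in turn, and 0.0548 without high-fat tea replicate 2. Without the 3 libraries that held transcripts of other organs, Nt5e averaged 12.7 ± 6.47 CPM in high-fat tea (SD, n = 4) and 3.25 ± 0.961 CPM in high-fat water (SD, n = 4). The rise was then 1.97 (adjusted p = 0.00394) and the fall with the diet -2.39 (adjusted p = 0.000348). With a dispersion estimated from only the groups compared, the rise had an adjusted p of 0.129. Without all 9 libraries that held over 1000 CPM of an other-organ list, it was 2.49 with an adjusted p of 0.112. High-fat tea replicate 2, at 21.9 CPM of Nt5e and with 648 CPM of the adrenal cortex list, stayed in the fits without the 3 and without the 9.

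**Figure D4:**
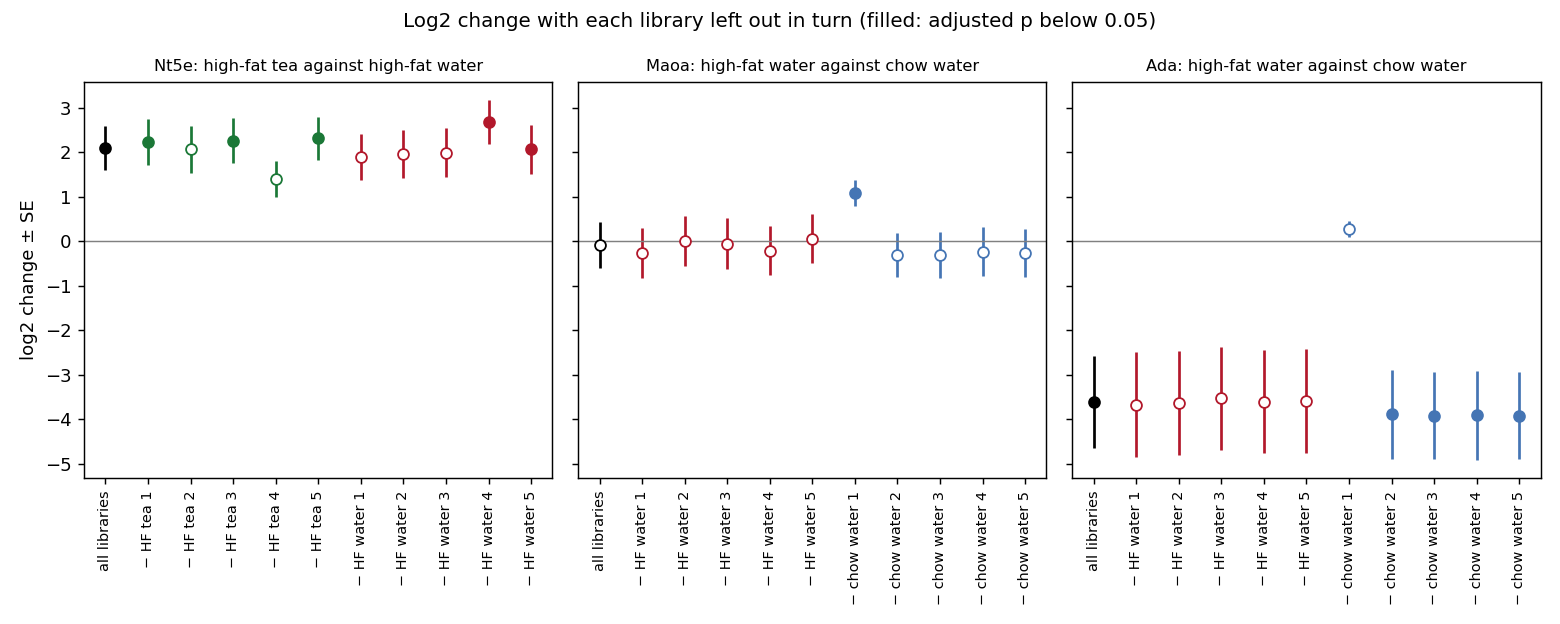
Log2 change ± SE with all libraries (black) and with each library left out in turn (coloured by its group), filled where the adjusted p was below 0.05, for Nt5e in high-fat (HF) tea against HF water and for Maoa and Ada in HF water against chow water. Nt5e stayed between 1.41 and 2.69, while without chow water replicate 1 Maoa lay at 1.09 and Ada at 0.27.

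In chow feeding the Nt5e change with tea was -0.48 (SE 0.48, adjusted p = 0.750), and in high-fat tea against chow tea it was 0.63 (SE 0.48, adjusted p = 0.537), or -0.06 without high-fat tea replicate 4 and -0.06 without the 3 libraries. The interaction of diet and tea was 2.57 (SE 0.69, unadjusted p = 0.00145, adjusted p = 0.121) in edgeR, and the adjusted p was 0.00824 in DESeq2 and 0.0353 in edgeR without the 3 libraries. It was 0.247 in limma voom and 0.308 in edgeR without the 9 libraries. CD73 is also known from stromal progenitors and mesothelium. The 8 progenitor and fibroblast markers summed to 1080 to 2180 CPM in high-fat tea, 1270 to 2220 in high-fat water, 1710 to 3400 in chow tea and 1350 to 2610 in chow water, and 0 of 8 were called in any comparison. The 8 mesothelial markers summed to 82.4 to 326 CPM in high-fat tea, 41.9 to 180 in high-fat water, 73.6 to 299 in chow tea and 106 to 386 in chow water. Of these, 2 were called lower in high-fat water against chow water (Krt19 and Upk1b) and 0 in high-fat tea against high-fat water. The part of such cells in the Nt5e result was not tested.

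Adk, the kinase that returns adenosine to AMP inside the cell, lies on chromosome 14 from base 21102642 to 21498637. Its level was 49.1, 72.9, 68.7, 155 and 39.5 CPM in high-fat tea, and 44.9, 48.3, 45.0, 59.2 and 51.7 CPM in high-fat water. It was 102, 76.9, 72.0, 82.5 and 74.4 CPM in chow tea, and 137, 83.7, 57.0, 80.1 and 61.1 CPM in chow water. In high-fat water 4 of 5 libraries lay below the lowest chow water library, and the highest values of high-fat tea and of chow water were in the libraries with kidney and pancreas transcripts. The change of Adk was -0.75 (SE 0.29, adjusted p = 0.0908) in high-fat water against chow water and 0.63 (SE 0.29, adjusted p = 0.203) in high-fat tea against high-fat water, and neither passed the test. Without the 3 libraries the first became -0.57 with an adjusted p of 0.0338 and the second 0.28 with an adjusted p of 0.369, and without the 9 libraries the first had an adjusted p of 0.178. Between chow tea and chow water Adk changed by -0.04 (SE 0.29, adjusted p = 0.982). Over the 20 libraries Adk and Nt5e ranked alike, with a Spearman rho of 0.84, the highest among the 36 pairs of the 9 genes, as a description of libraries that share diet, organ transcripts and depth.

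Ada, the deaminase that turns adenosine into inosine, lies on chromosome 2 from base 163568504 to 163592159 on the minus strand. Its level was 2.58, 3.0, 3.05, 2.59 and 2.22 CPM in high-fat tea, and 3.15, 2.94, 2.11, 2.81 and 2.60 CPM in high-fat water. It was 2.37, 2.04, 2.67, 1.92 and 2.04 CPM in chow tea, and 158, 2.63, 1.92, 2.48 and 1.72 CPM in chow water. All libraries but chow water replicate 1, the library with pancreas and intestine transcripts, lay between 1.72 and 3.15 CPM. Ada is known to be abundant in the epithelium of the upper gut of the mouse. Its fall in high-fat water against chow water was -3.61 (SE 1.04, adjusted p = 0.0270). Without chow water replicate 1 the change of Ada was 0.27 (adjusted p = 0.332), so that its sign turned and the call ended. Without the 3 libraries Ada averaged 2.70 ± 0.451 CPM in high-fat water and 2.19 ± 0.434 CPM in chow water (SD, n = 4 each), with a change of 0.30 (adjusted p = 0.290). The change of Ada in chow tea against chow water, -3.92 (SE 1.06, adjusted p = 0.193), was -0.01 without chow water replicate 1.

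Maoa and Maob encode monoamine oxidases A and B and are neighbours on chromosome X. Maoa runs from base 16485937 to 16554057 on the plus strand and Maob from 16575521 to 16683605 on the minus strand, tail to tail with 21463 bases between them. Their annotated exons share no bases. Their transcripts share 5 distinct sequences of 31 bases, which can overlap each other, so that few reads could be placed on both.

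Maoa, which prefers noradrenaline and serotonin, stood at 29.6, 32.3, 34.1, 19.7 and 53.5 CPM in high-fat tea, and at 115, 58.0, 72.0, 108 and 46.7 CPM in high-fat water. In chow tea it stood at 26.1, 27.0, 30.9, 23.1 and 25.3 CPM, and in chow water at 280, 27.1, 27.5, 49.4 and 42.3 CPM. Of the high-fat tea libraries 4 of 5 lay below the lowest high-fat water library, and replicate 5 lay among them. The level was 33.8 ± 12.3 CPM in high-fat tea and 80.0 ± 30.3 CPM in high-fat water (SD, n = 5 each), a log2 change of -1.24 (SE 0.53, adjusted p = 0.163) that did not pass the test. It was -1.08 to -1.47 when 1 library was left out and was called in 0 of 10 such fits. Without the 3 libraries it was -0.96 with an adjusted p of 0.0398, and without the 9 libraries -1.01 with an adjusted p of 0.236.

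The diet difference of Maoa turned on chow water replicate 1. Over all libraries the change in high-fat water against chow water was -0.09 (SE 0.52, adjusted p = 0.928). Without that library Maoa rose by 1.09 on the log2 scale (adjusted p = 0.0186). Without the 3 libraries it averaged 72.9 ± 29.8 CPM in high-fat water and 36.6 ± 11.1 CPM in chow water (SD, n = 4 each), a rise of 0.995 (adjusted p = 0.0157). Over all libraries limma voom gave a change of 0.56 (adjusted p = 0.46). Without the 9 libraries edgeR called 0 members higher in this comparison, so the rise of Maoa was not called there. In chow tea against chow water the change of Maoa was -1.69 (SE 0.53, adjusted p = 0.224), and it was -0.49 without chow water replicate 1. The 8 macrophage markers, a cell type known to take up and break down noradrenaline in fat, summed to 352 to 1090 CPM in high-fat tea, 645 to 1340 in high-fat water, 599 to 1100 in chow tea and 367 to 1110 in chow water. Of these, 3 were called higher and 1 lower in high-fat water against chow water. By rising p these were Mertk, Adgre1, Fcgr1 and Cd68. None of the macrophage markers was called in high-fat tea against high-fat water. The markers of sympathetic neurons and adrenal medulla summed to 0.648 to 19.7 CPM in high-fat tea and 2.51 to 3850 CPM in high-fat water, with the highest value in high-fat water replicate 4, whose Maoa level was 108 CPM. Their sums were 0.645 to 2.28 CPM in chow tea and 0.794 to 182 CPM in chow water. Of 7 tested, 1 was called lower in high-fat tea against high-fat water (Chga), and 0 in high-fat water against chow water. The part of these cells in the Maoa values was not tested.

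Maob, which prefers phenylethylamine, stood at 57.0, 98.1, 53.4, 29.9 and 44.2 CPM in high-fat tea, and at 39.5, 49.5, 55.7, 41.2 and 51.7 CPM in high-fat water. In chow tea it stood at 58.4, 66.6, 42.7, 66.0 and 47.1 CPM, and in chow water at 86.9, 72.9, 55.3, 106 and 60.7 CPM. In high-fat water 4 of 5 libraries lay below the lowest chow water library and replicate 3 lay just above it. The change in high-fat water against chow water was -0.68 (SE 0.25, adjusted p = 0.0695) and did not pass the test in edgeR, whereas DESeq2 gave -0.71 with an adjusted p of 0.0313. With tea the change of Maob was 0.25 (SE 0.25, adjusted p = 0.589) in high-fat feeding and -0.44 (SE 0.25, adjusted p = 0.496) in chow feeding. Within libraries, Maoa made up a median of 30.0% of the CPM per kilobase of both genes in high-fat tea, 46.4% in high-fat water, 23.1% in chow tea and 24.9% in chow water. The ranges of this share overlapped between all pairs of groups except high-fat water and chow tea, whose ranges were 37.7% to 66.1% and 18.9% to 32.6%. The overlap of high-fat water with chow water rested on chow water replicate 1, at 68.3%. The other chow water libraries lay between 19.9% and 31.8%. The share of Maoa was not tested.

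Other genes of these pathways were counted in further lists, whose shares of called genes are to be read beside the 15.2% of all genes called in high-fat water against chow water and the 4.36% in high-fat tea against high-fat water. The first list held 18 genes counted under adenosine formation and the hydrolysis of its precursors. Ahcy, which acts on S-adenosylhomocysteine, and its relative Ahcyl1 were called lower in high-fat water against chow water. Ahcyl1 was called in 5 of 10 fits that left out 1 library. In high-fat tea against high-fat water Ahcy was called higher. The list's median change was -0.41 and 0.24 in these comparisons, against -0.002 and 0.02 over all genes. Ahcy averaged 97.6 ± 103 CPM in high-fat tea, 24.3 ± 5.05 in high-fat water and 101 ± 85.7 in chow water (SD, n = 5 each). Its change with the diet was -2.05 (adjusted p = 0.0188), -1.42 and no longer called without chow water replicate 1, and -1.48 (adjusted p = 0.00256) without the 3 libraries. Its change with tea was 2.01 (adjusted p = 0.0450), called in only 2 of 10 fits that left out 1 library. It was 1.12 and no longer called without high-fat tea replicate 4. Without the 3 libraries it was 1.22 (adjusted p = 0.0204), and without the 9 libraries 0.98 (adjusted p = 0.124). Of 16 tested genes of adenosine transport and further purine handling, Slc29a1, the equilibrative nucleoside transporter, rose by 0.44 (adjusted p = 0.0305, called in 5 of 10 fits that left out 1 library) in high-fat water against chow water and 1 was called lower, Slc28a1. Slc28a1 stood at 35.4 CPM in chow water replicate 1, and its change was -6.77 with that library and -2.44 without it. None of the 16 was called with tea in high-fat feeding.

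On the side of cyclic AMP, 2 of 18 G protein and adenylyl cyclase genes were called higher (Adcy7 and Gnai2) and 1 lower (Gna11) in high-fat water against chow water, 16.7% of the list beside 15.2% of all genes, and 2 were called lower in high-fat tea against high-fat water (Adcy7 and Gnas). Adcy7, an adenylyl cyclase known from blood cells, stood at 20.5, 24.8, 19.5, 14.4 and 39.4 CPM in high-fat tea, 111, 67.9, 55.9, 60.8 and 41.1 CPM in high-fat water and 16.7, 13.2, 24.0, 14.1 and 25.8 CPM in chow water. The high-fat water libraries lay above all libraries of both other groups. Among all genes, 12.9% did not overlap between high-fat water and chow water, and 5.55% between high-fat tea and high-fat water. Adcy7 rose by 1.84 (SE 0.30, adjusted p = 0.00118) in high-fat water against chow water and fell by 1.51 (SE 0.30, adjusted p = 0.0138) in high-fat tea against high-fat water, and each was called in 10 of 10 fits that left out 1 library. The fall was not called with only the groups compared (adjusted p = 0.0699) or without the 9 libraries (adjusted p = 0.176). Gnai2, an inhibitory G protein subunit, rose by 0.47 (adjusted p = 0.0261, called in 6 of 10 fits that left out 1 library) and Gna11 fell by 0.63 (adjusted p = 0.0377, called in 5 of 10). Gna11 stood at 292 CPM in chow water replicate 1, and its change was -0.30 without the 3 libraries. Gnas, the gene of the stimulatory subunit, had 10.5 ± 3.92 CPM in high-fat tea and 24.0 ± 7.90 in high-fat water (SD, n = 5 each). It fell by 1.20 with tea (adjusted p = 0.0389, called in 3 of 10). This fall was not called without the 3 libraries (adjusted p = 0.0675), without the 9 (0.222) or with only the groups compared (0.105). Of its exonic bases 12.9% overlap a predicted gene and 8.7% overlap Gnasas1, both on the opposite strand.

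A list of 18 phosphodiesterases covered enzymes that break down cyclic nucleotides, cyclic AMP among them but not the substrate of all. Of these, 1 was called higher and 3 lower in high-fat water against chow water, 22.2% of the list beside 15.2% of all genes. Pde7a was the one higher, with 65.4 ± 16.2 CPM in high-fat water and 25.7 ± 8.71 in chow water (SD, n = 5 each), a rise of 1.35 (SE 0.29, adjusted p = 0.00562). Without the 9 libraries the adjusted p of Pde7a was 0.056. Pde3a fell by 0.98 (SE 0.17, adjusted p = 0.00143), with 21.8 ± 2.88 CPM in high-fat water and 43.1 ± 10.4 in chow water. Pde4d fell by 1.81 (adjusted p = 0.0196, called in 8 of 10 fits that left out 1 library). Pde3b, the insulin-regulated enzyme of fat cells, was the other one lower, named here because the count is small. With tea in high-fat feeding Pde4c alone was called higher, by 2.38 (adjusted p = 0.0438). Pde4c reached 74.5 CPM in high-fat tea replicate 4, and its change was 0.77 and no longer called without that library.

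Of 10 tested genes of catecholamine synthesis, storage and uptake, 0 were called in any comparison (list medians 0.70 with the diet and -1.0 with tea in high-fat feeding). The 8 markers of sympathetic neurons and adrenal medulla, which include 4 genes of this list, reached 3850 CPM in high-fat water replicate 4, against 187.5 CPM or less in every other library. Of 13 tested genes of other amine and aldehyde breakdown, 1 was called higher and 2 lower in high-fat water against chow water and 0 in high-fat tea against high-fat water. Aldh2, which oxidises the aldehydes that monoamine oxidases leave, had 601 ± 36.1 CPM in high-fat water and 1103 ± 271 in chow water (SD, n = 5 each), a fall of 0.88 (SE 0.18, adjusted p = 0.00474). Sult1a1, a sulfotransferase of phenols, fell by 1.39 (SE 0.26, adjusted p = 0.00284). Aldh2 and Sult1a1 were each called in 10 of 10 fits that left out 1 library.

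In none of the lists described was a gene called in chow tea against chow water, in high-fat tea against chow tea or in the interaction.

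The genes whose levels were most like each member were taken from 11989 well-expressed genes by Spearman correlation of log2 CPM over the 20 libraries, which share groups, organ transcripts and depth. For Nt5e these were Arhgap32 (0.93), Eps8l2 (0.92) and Adam11 (0.90), and for Adk they included Ggact (0.95) and Acot1 (0.94). For Maoa they were Slc25a24 (0.92), Ptgfrn (0.91) and Runx1 (0.89), and for Maob Car13 (0.89), Itpka (0.86) and Rnf121 (0.84). Adora1 was among others most like Scarb1 (0.81) and Abcb1b (0.79), and Adora2a most like Efnb1 (0.93), Sdk2 (0.93) and Mtmr3 (0.92). The values for Adora2b (Fam83f, 0.83), Ada (Sinhcaf, 0.78) and Adora3 (Nupr1, 0.74) rest on low levels.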

How the data were processed

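The authors deposited whole-number counts of reads per gene, 1 table per library, not normalized. Per the file headers, featureCounts 2.0.6 counted exons of GENCODE vM32 (GRCm39) by gene name, with the paired option but without counting pairs as fragments and with no strand option. Per the submitters' processing notes, fastp 0.23.2 and HISAT2 2.2.1 were also used, and the notes name mm10. Between 68.1% and 72.2% of counts from 1 to 20 were even, so most fragments entered as a pair of reads. Positions are GRCm39 from the tables, and promoters are GRCm38.p6 from RefSeq.

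From these counts, genes were kept with filterByExpr (at least 10 counts in 5 libraries, at least 15 in all), scaled by TMM and tested with the quasi-likelihood F test of edgeR 4.0.16 in R 4.3.3, with 1 mean per group over 20 libraries, Benjamini-Hochberg adjustment and a threshold of 0.05. The steps were tested on simulated counts. Alternatives used DESeq2 1.42.0, limma 3.58.1 (voom), other scalings and filters, and fewer libraries. No pair of libraries within a group agreed within sampling noise (lowest chi-square per gene 68.7 over 40 pairs). The 9 genes, the lists and the rules for naming genes (up to 3 called genes per list and comparison with the lowest p, and 3 genes most like each member) were chosen with earlier results of these data known. The design calls the mice of a group separate animals, and no batch is labelled. Some genes and 1 list that the rules take are not reported here.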

Additional observations from a re-analysis of the deposited data

Results flagged for a closer look

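For the 9 genes in 4 groups, 36 sets of 5 libraries were checked for a library far from the others by Dixon's test at 95% (critical value 0.71), and 6 stood apart. The sets come from the same 20 libraries and are not independent, so this count is a description and not a test. In chow water replicate 1, with pancreas and intestine transcripts, Ada stood at 158.1 CPM, Maoa at 279.5 CPM and Adora3 at 0.6189 CPM, each the highest of its group. In high-fat water replicate 4, with reproductive tract and adrenal transcripts, Adora1 stood at 175.3 CPM and Nt5e at 10.91 CPM. In high-fat water replicate 3, Adora3 stood at 1.408 CPM, on 92 reads, the highest Adora3 count of any library.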

How the results depend on the processing

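Of 976 member values recomputed over 45 member changes, 877 kept direction and side of the threshold, 71 moved, 15 lost a call, 8 gained one and 5 reversed. The reversals were Ada in high-fat water against chow water (-3.92 to 0.27 when 1 library was left out, with 0.27 without chow water replicate 1, 0.303 without 3 and 0.547 without 9 libraries with other-organ transcripts) and Maoa there (-0.31 to 1.09, with 1.09 without chow water replicate 1, 0.995 without the 3); the libraries left out were chosen after seeing the data. Of the 9 genes, 1 was called in high-fat water against chow water under limma voom, the replicate block and without 9 libraries. In high-fat tea against high-fat water 0 were called with only the groups compared and without 9 libraries, and 3 without 3 libraries. DESeq2 called 1 in high-fat tea against chow tea and 1 in the interaction, where 1 was also called without 3 libraries. Leaving out 1 library gave 1 to 2 members called in high-fat water against chow water and 0 to 1 in high-fat tea against high-fat water. The cause of these shifts was not tested. Counts over all genes moved too. DESeq2 called 2444 in high-fat tea against high-fat water, 260 in chow tea against chow water, 935 in high-fat tea against chow tea and 692 in the interaction, and limma voom 73 in high-fat tea against chow tea and 6 in the interaction. Without a filter on low counts these were 408, 2, 19 and 4. With only the groups compared they were 21, 0 and 5 for the first 3, and with halved counts 67 in high-fat tea against chow tea. Without 3 libraries they were 1602, 9, 292 and 44, and without 9 libraries 13, 0, 5 and 0, with 2052 in high-fat water against chow water. Leaving out 1 library gave 1890 to 3445, 212 to 2017, 2 to 6, 10 to 390 and 3 to 111 in high-fat water against chow water, high-fat tea against high-fat water, chow tea against chow water, high-fat tea against chow tea and the interaction. Same-numbered libraries did not deviate together more than others (correlations -0.27 to 0.47, against -0.48 to 0.5 for other numbers, 5 of 20 libraries most like their own number). The labels do not say whether the numbers pair mice, and these correlations cannot exclude it, since other-organ transcripts differ between libraries. With the replicate block 2 genes were called in chow tea against chow water, and Nt5e kept its calls (-2.14, adjusted p = 0.00524, and 1.99, adjusted p = 0.0202). DESeq2 gave no adjusted p for Ada in any comparison. Depth limits Adora3, at 5 to 92 reads per library.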
